A study of Homo sapiens with 8 samples.

Results

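The nuclear genes of respiratory complex I were examined in the human cell line Ea.hy926, a hybrid of human endothelium (umbilical vein) and the lung carcinoma line A549. The genes were chosen by name: 36 subunits and 14 assembly factors, 50 of the 38010 gene IDs in the count table. Each matched 1 ID. The subunits were divided by their place in the enzyme into 15 of the matrix arm, 20 of the membrane arm and 1 (NDUFAB1) that sits in both. Bulk RNA-seq of polyadenylated RNA compared a Rho0 line (4 libraries) with the parental line (4 libraries). Both were Ea.hy926 cells grown to confluence with no other treatment in the labels. The labels call the Rho0 line deficient in oxidative phosphorylation and the 4 cultures of each line biological replicates. They do not say how mitochondrial DNA was depleted or how many clones make up the Rho0 line.

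Complex I takes electrons from NADH and passes them through a flavin and a chain of iron-sulfur clusters to ubiquinone, and it pumps protons across the inner mitochondrial membrane as it does so. The matrix arm holds the electron carriers, with an N module that oxidises NADH and a Q module that reduces ubiquinone. The membrane arm pumps the protons; its core is encoded by mitochondrial DNA and is surrounded by nuclear accessory subunits. Assembly factors build the parts and leave before the enzyme is finished. Cells without mitochondrial DNA cannot make the membrane core, so the nuclear genes examined here encode parts of an enzyme that cannot be completed in such cells.

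The mitochondrially encoded mRNAs check the label. The 7 mRNAs for the membrane core took 0.00165%, 0.0553%, 0.00282% and 0.00111% of counts in Rho0 replicates 1 to 4, against 6.96%, 6.77%, 8.42% and 5.72% in parental replicates 1 to 4. The lines did not overlap (exact permutation test, two-sided, p = 0.0286, which is as small as 4 against 4 libraries allow), and Rho0 replicate 2 held more of these mRNAs than the other Rho0 libraries. Libraries held 11721448 to 37203313 counts in Rho0 and 23365946 to 28599112 in the parental line. Levels below are in CPM over a library size scaled by TMM, a factor per library that evens out composition. Of 9 endothelial markers tested, 4 were higher in Rho0 (PECAM1, VWF, TEK and KDR) and 2 lower (CDH5 and ESAM). These are 44.4% and 22.2%, against 29.0% and 25.4% of all genes tested. PECAM1 had a mean of 2118 CPM in Rho0 and 1086 CPM in the parental line, and KDR 131 and 13.8 CPM. CDH5 had 1034 and 1718 CPM, and ESAM 264 and 413 CPM. All 10 markers together summed to 4837 to 5145 CPM in Rho0 and 4495 to 4929 CPM in the parental line. The sum joins these opposite changes, and CLDN5 was near 0 in both lines. The 6 epithelial markers summed to 1295 to 2079 CPM in Rho0 and 2607 to 2880 CPM in the parental line. Of the 5 tested, KRT8 and KRT18 were lower in Rho0, EPCAM was higher, and KRT7 and CDH1 were not called. KRT19 was near 0, and EPCAM and CDH1 were under 1 CPM on average, in both lines. In bulk RNA of a hybrid line, fewer cells that express a marker and less of its RNA per cell cannot be told apart. The part of these markers in the results below was not tested.

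Complex I genes were more often lower than higher in Rho0, and 19 of the 23 lower genes encode subunits. All 50 genes passed the filter on low counts. By edgeR's quasi-likelihood test, called at a Benjamini-Hochberg adjusted p of 0.05 over 15184 genes, 23 of the 50 were lower in Rho0, 8 were higher and 19 were not called. Over all genes tested, 25.4% were called lower and 29.0% higher, 54.4% in either direction, so the share of complex I genes called lower (46.0%) lay above that of all genes and the share called higher (16%) below it. The median log2 fold change was -0.26 over the 50 genes and 0.05 over all genes. The values of the lines did not overlap for 20 genes that were lower and 9 that were higher in Rho0, where the shares over all genes were 24.3% and 26.6%.

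These directions are relative to TMM scaling. With library size alone the median of all genes tested moved to 0.44 and that of the 50 genes to 0.13, and the counts became 22 higher and 9 lower. Under that scaling 56.5% of all genes tested were called higher and 10.1% lower, so the 50 genes (44.0% higher, 18.0% lower) again lay below all genes for higher calls and above them for lower calls. The gap between the 2 medians was -0.31 with TMM and -0.32 with library size alone. Rescaling moves the log2 fold changes of all genes by nearly the same amount. The gap is thus kept by arithmetic and does not check the result, and the shares come from the same shifted values. The calls of NDUFS3, NDUFS8, NDUFA9, NDUFA13, NDUFB2, NDUFB4, NDUFB10, ACAD9, ECSIT and FOXRED1 were lost with library size alone, and NDUFAB1, NDUFA1, NDUFC2 and NDUFB1 turned sign without a call. Leaving mitochondrially encoded genes out of the totals and the fit gave 8 higher and 23 lower.

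The classes differed in their counts. Subunits had 19 lower and 2 higher of 36, with a median log2 fold change of -0.32. The 20 membrane arm genes had 13 lower and none higher, with 7 not called and a median of -0.37. The 15 matrix arm genes had 5 lower, 2 higher and 8 not called, with a median of -0.14. Among the 14 assembly factors 6 were higher, 4 lower and 4 not called, with a median of 0.07. As shares, 52.8% of subunits were lower and 5.56% higher, and 65.0% of membrane arm genes were lower. The matrix arm had 33.3% lower and 13.3% higher, and the assembly factors 28.6% lower and 42.9% higher. All genes tested had 25.4% lower and 29.0% higher. The shares lower in the matrix arm and the assembly factors were nearer to that of all genes than the share in the membrane arm was. A test between the classes was not made. With library size alone the membrane arm had 6 lower and 6 higher, the matrix arm 2 lower and 7 higher, and the assembly factors 1 lower and 9 higher. As shares these were 30.0% lower and 30.0% higher in the membrane arm, 13.3% and 46.7% in the matrix arm, and 7.14% and 64.3% in the assembly factors, beside the 10.1% lower and 56.5% higher of all genes.

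**Figure D1:**
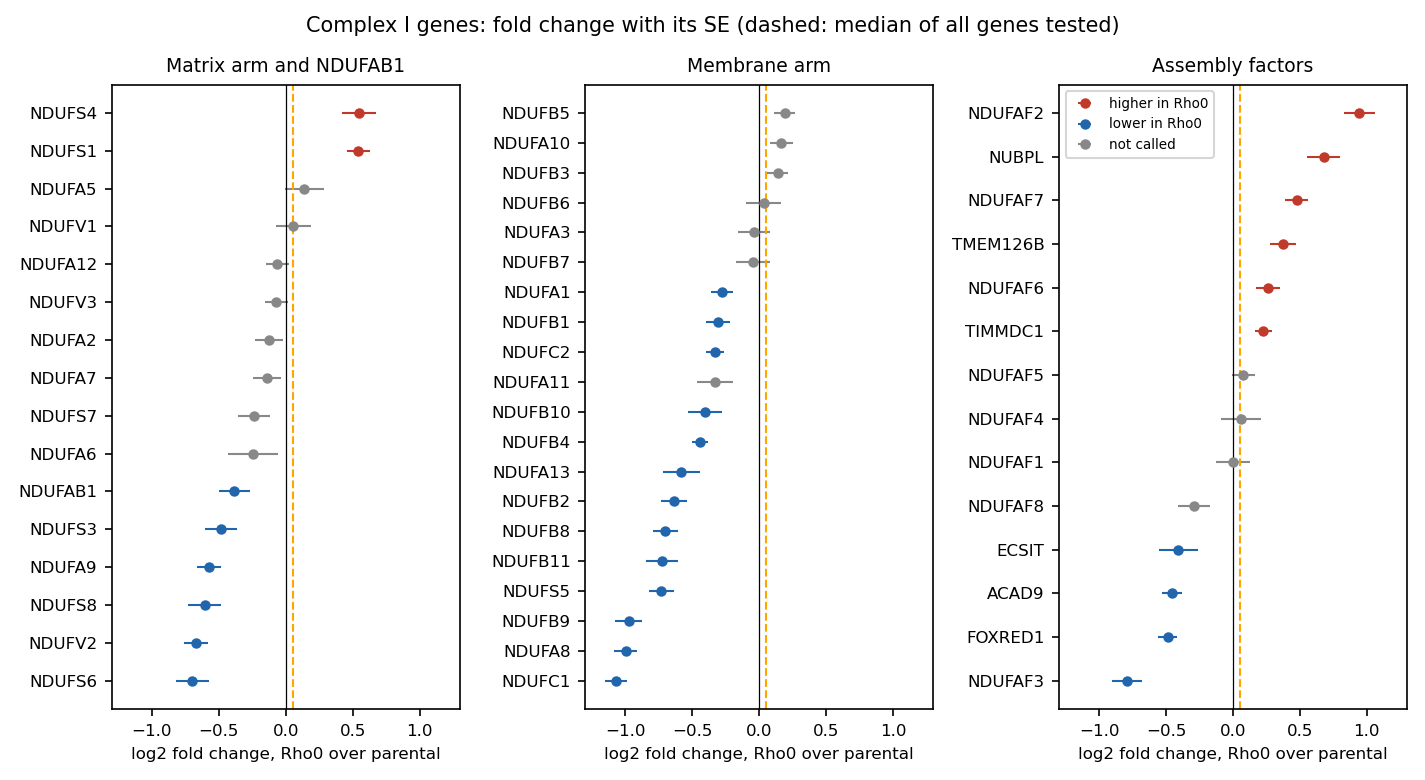
Log2 fold change, Rho0 over parental, of each of the 50 genes with its SE, in panels for the matrix arm with NDUFAB1, the membrane arm and the assembly factors, under TMM scaling. Points called higher in Rho0 are red, called lower blue and not called grey, and the dashed line is the median of all genes tested (0.05). Called points of the membrane arm all lie left of 0, whereas called assembly factors lie on both sides; with library size alone NDUFAB1, NDUFA1, NDUFC2 and NDUFB1 pass to the right of 0.

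In the matrix arm, the subunits that carry the flavin and the iron-sulfur clusters did not move together. NDUFS1, the large N-module subunit that holds several iron-sulfur clusters, had 53.1, 54.3, 52.8 and 64.0 CPM in Rho0, against 41.0, 36.9, 35.6 and 40.6 CPM in parental cells. Every Rho0 library was above every parental one, and NDUFS1 rose by a log2 fold change of 0.54 (SE 0.09, adjusted p = 3.5e-04, edgeR). NDUFV2, its N-module neighbour with a single iron-sulfur cluster, went the other way. It had 38.7, 29.5, 35.3 and 33.1 CPM in Rho0, against 50.8, 57.7, 53.3 and 56.7 CPM in parental cells, a log2 fold change of -0.67 (SE 0.09, adjusted p = 1.1e-04, edgeR) with no overlap. NDUFV1, the subunit that binds NADH and the flavin, was not called. Its levels were 160, 132, 120 and 95.5 CPM in Rho0, spread on both sides of the 123, 121, 124 and 120 CPM of parental cells (log2 fold change 0.06, SE 0.13).

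The core subunits of the Q module lay lower or were not called. NDUFS8, which carries a pair of iron-sulfur clusters, had 98.3, 81.0, 77.0 and 62.3 CPM in Rho0, against 113, 122, 129 and 121 CPM in parental cells, and NDUFS3, a core subunit without a cluster, had 24.7, 19.4, 17.7 and 17.2 CPM in Rho0, against 25.1, 28.5, 27.9 and 29 CPM. Neither overlapped between the lines, and the log2 fold changes were -0.61 for NDUFS8 (edgeR adjusted p = 0.0015) and -0.49 for NDUFS3 (edgeR adjusted p = 0.0054). NDUFS7, which holds the last cluster before ubiquinone, had 48.8, 45.9, 35.9 and 33.9 CPM in Rho0, against 44.4, 51.8, 50 and 47.2 CPM in parental cells. These overlapped and the gene was not called (log2 fold change -0.24, SE 0.12, edgeR adjusted p = 0.12). It was called lower without Rho0 replicate 1 and when libraries were corrected for GC content and transcript length.

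Accessory subunits of the matrix arm added 2 clear drops and 1 rise. NDUFS6, a zinc-binding subunit added late to the N module, had the largest drop of the arm: 49.2, 40.1, 45.5 and 31.5 CPM in Rho0, against 68.1, 65.3, 73.1 and 62.8 CPM in parental cells (log2 fold change -0.70 with SE 0.13, edgeR adjusted p = 8.3e-04). The lines did not overlap. NDUFA9, a Q-module subunit at the junction of the arms, fell by 0.58 (edgeR adjusted p = 3.0e-04) and also did not overlap. NDUFS4, an N-module subunit whose loss causes Leigh syndrome, had 9.68, 7.31, 9.86 and 9.90 CPM in Rho0, against 5.87, 5.92, 6.03 and 7.53 CPM in parental cells. It rose by 0.55 (SE 0.13, edgeR adjusted p = 0.0046), although the lowest Rho0 library lay below the highest parental one. The other 6 accessory genes (NDUFV3, NDUFA2, NDUFA5, NDUFA6, NDUFA7 and NDUFA12) were not called, with log2 fold changes of -0.25 to 0.14. Without Rho0 replicate 1 the arm had 9 genes lower in place of 5, with NDUFA2, NDUFA6, NDUFA7 and NDUFS7 added. More of all genes tested were called lower in that fit too.

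NDUFAB1, the mitochondrial acyl carrier protein that binds both arms and also serves fatty acid synthesis, had 19.7, 15.7, 14.1 and 16 CPM in Rho0, against 21.2, 21.7, 18.9 and 23.7 CPM in parental cells. It was called lower (log2 fold change -0.38, SE 0.11, edgeR adjusted p = 0.016), though 1 Rho0 library lay inside the parental range and the call was lost without Rho0 replicate 3 and with library size alone, where its fold change was close to 0.

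**Figure D2:**
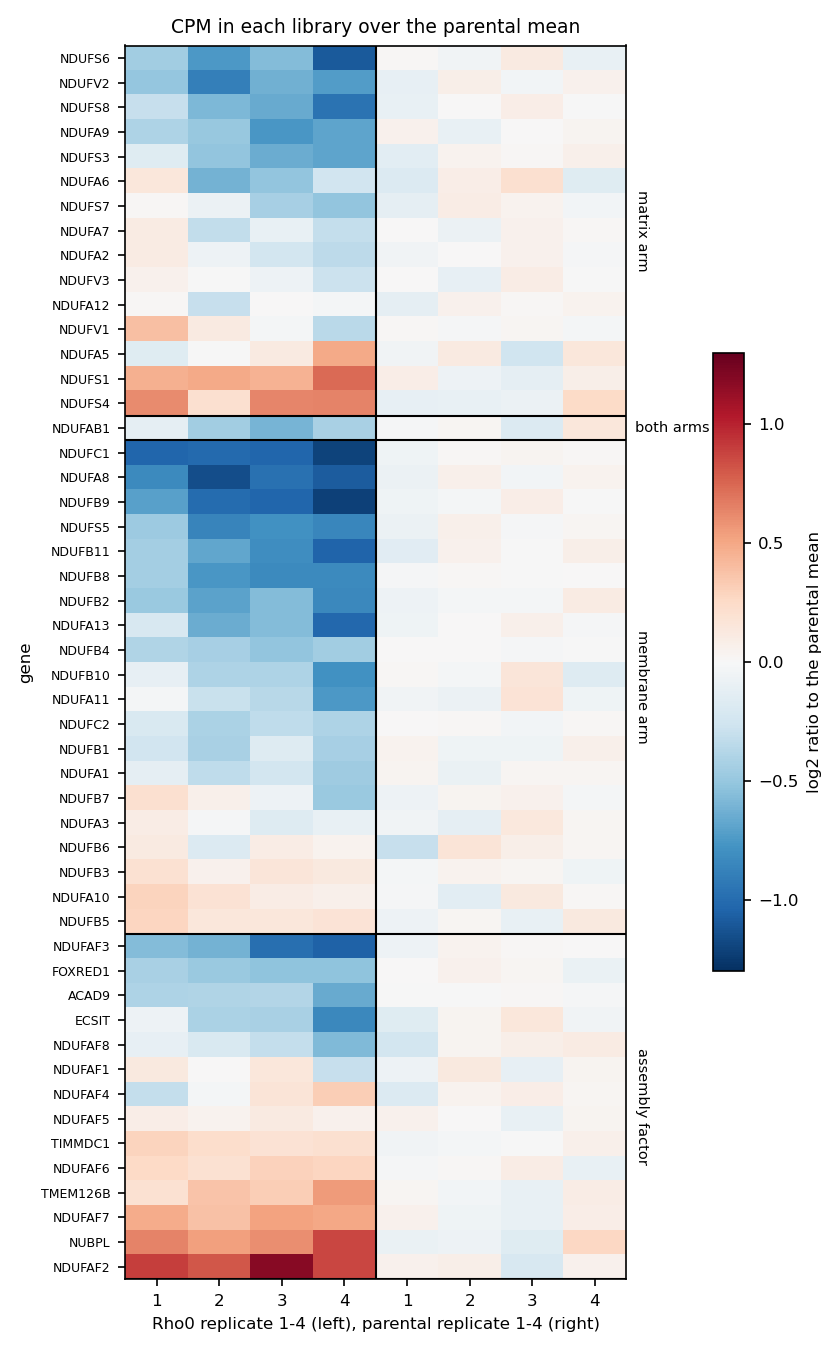
CPM of each gene in each library as a log2 ratio to the parental mean, Rho0 replicates 1 to 4 on the left and parental replicates 1 to 4 on the right, with genes ordered by fold change within each class. The Rho0 side is mostly blue in the membrane arm and runs from blue to red in the assembly factors, and Rho0 replicate 1 is paler than the other Rho0 libraries for most genes that are lower.

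The membrane arm held the 3 largest drops of all 50 genes. NDUFC1, a small single-pass subunit of the ND2 part, had 9.26, 9.42, 9.31 and 8.27 CPM in Rho0, against 18.2, 19.1, 19.4 and 19.2 CPM in parental cells, a log2 fold change of -1.07 (SE 0.08, adjusted p = 1.5e-06, edgeR). NDUFA8, a subunit with paired cysteine motifs that is folded by the import factor CHCHD4, had 19.0, 15.2, 17.2 and 16 CPM in Rho0, against 31.9, 35.3, 33.0 and 34.8 CPM in parental cells (log2 fold change -0.999, SE 0.09, edgeR adjusted p = 4.0e-06). NDUFB9, a member of the LYR protein family in the ND5 part, had 102, 83.0, 81.1 and 71.3 CPM in Rho0, against 160, 163, 176 and 165 CPM in parental cells (-0.98, SE 0.10, edgeR adjusted p = 1.8e-05). In each of the 3 genes every Rho0 library lay far below every parental library, and the mean was lower 2.09-fold for NDUFC1, 2.00-fold for NDUFA8 and 1.97-fold for NDUFB9.

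The promoters of NDUFC1 and NDUFA8 are shown because these genes had the largest drops with a promoter to print. They are 300 bases each from RefSeq on GRCh38.p14, 5′ to 3′ on the gene's strand, and capitals mark the letters of searched motifs, here NRF1, a factor known for driving nuclear genes of mitochondrial proteins. NDUFC1 (gene at chr4:139266880-139302551 in GENCODE 29 on GRCh38, promoter at chr4:139302502-139302801, minus strand, the first of 4 listed) holds none of the searched motifs. NDUFA8 (gene at chr9:122144058-122159819, promoter at chr9:122159730-122160029, minus strand) holds 2 overlapping NRF1 matches that begin at -4 and -2. Positions of matches count from the RefSeq start on which each window is built, which equals the GENCODE 29 gene start for NDUFC1 and lies 40 bases downstream of it for NDUFA8.
NDUFC1: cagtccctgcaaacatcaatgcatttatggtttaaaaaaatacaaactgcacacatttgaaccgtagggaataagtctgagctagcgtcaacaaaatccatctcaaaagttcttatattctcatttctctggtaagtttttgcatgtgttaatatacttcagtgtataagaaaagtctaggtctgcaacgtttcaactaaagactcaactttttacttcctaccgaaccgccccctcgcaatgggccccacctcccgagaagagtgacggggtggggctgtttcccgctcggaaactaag
NDUFA8: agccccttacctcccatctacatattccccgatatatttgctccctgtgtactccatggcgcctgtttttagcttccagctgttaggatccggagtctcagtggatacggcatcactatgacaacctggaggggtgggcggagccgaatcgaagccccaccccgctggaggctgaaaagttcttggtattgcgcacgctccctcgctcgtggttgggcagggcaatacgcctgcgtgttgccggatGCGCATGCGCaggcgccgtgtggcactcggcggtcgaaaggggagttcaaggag

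The other membrane arm drops covered all 4 parts that surround the missing core subunits. In each part 60% to 75% of its few genes were called lower, against 25.4% of all genes tested. Around ND1, 3 of 4 genes were lower, NDUFA13 (also called GRIM-19) by 0.58 and NDUFA1 by 0.28 besides NDUFA8. Around ND2, 3 of 5 were lower, with NDUFS5, another subunit with paired cysteine motifs, at 55.3, 42.3, 44.5 and 42.7 CPM in Rho0, against 72.7, 80.6, 76.3 and 78.0 CPM in parental cells (log2 fold change -0.73, edgeR adjusted p = 7.4e-05). Around ND4, 4 of 6 were lower, led by the single-pass subunit NDUFB11 at -0.73 (edgeR adjusted p = 4.1e-04). Around ND5, 3 of 5 were lower, with NDUFB8 at 38.6, 31.2, 29.5 and 29.7 CPM in Rho0, against 52.0, 53.3, 52.3 and 52.7 CPM in parental cells (-0.70, edgeR adjusted p = 9.1e-05). NDUFB2, NDUFB4, NDUFC2 and NDUFB1 were lower by log2 fold changes of -0.64, -0.45, -0.33 and -0.31, also without overlap. NDUFB10 was called lower at -0.41 with overlapping lines, and its call was lost without Rho0 replicate 3 and without parental replicate 3.

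The other 7 membrane arm genes were not called. NDUFA10, NDUFB3, NDUFB5, NDUFB6, NDUFB7 and NDUFA3 had log2 fold changes between -0.05 and 0.19. NDUFB5 was above the parental range in every Rho0 library (22.9 to 25.1 CPM in Rho0, 19.3 to 22.6 CPM in parental cells), and NDUFB3 likewise (13.6 to 15.0 CPM in Rho0, 12.6 to 13.6 CPM in parental cells, a gap smaller than the rounding), but at edgeR adjusted p = 0.064 and 0.15 neither passed. NDUFA11 narrowly missed the threshold (log2 fold change -0.33, edgeR adjusted p = 0.054) and was called lower in 7 of 19 alternatives. Annotated exons of NDUFC1, NDUFA13, NDUFC2, NDUFB8, NDUFA11 and NDUFB2, and outside this arm of NDUFS3, NDUFA9, NDUFA7 and ECSIT, overlap another protein-coding gene on the same strand. Others overlap a gene on the opposite strand. Among these are NDUFB11 (636 of 1418 exonic bases, with RBM10), NDUFA1 (341 of 766, RNF113A) and NDUFAF3 (527 of 2434, DALRD3). The sources used here do not say which strand was counted or how such reads were divided in the counting. With library size alone the fold changes of NDUFA1, NDUFC2 and NDUFB1 turned positive, whereas those of NDUFC1, NDUFA8 and NDUFB9 stayed called lower.

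**Figure D3:**
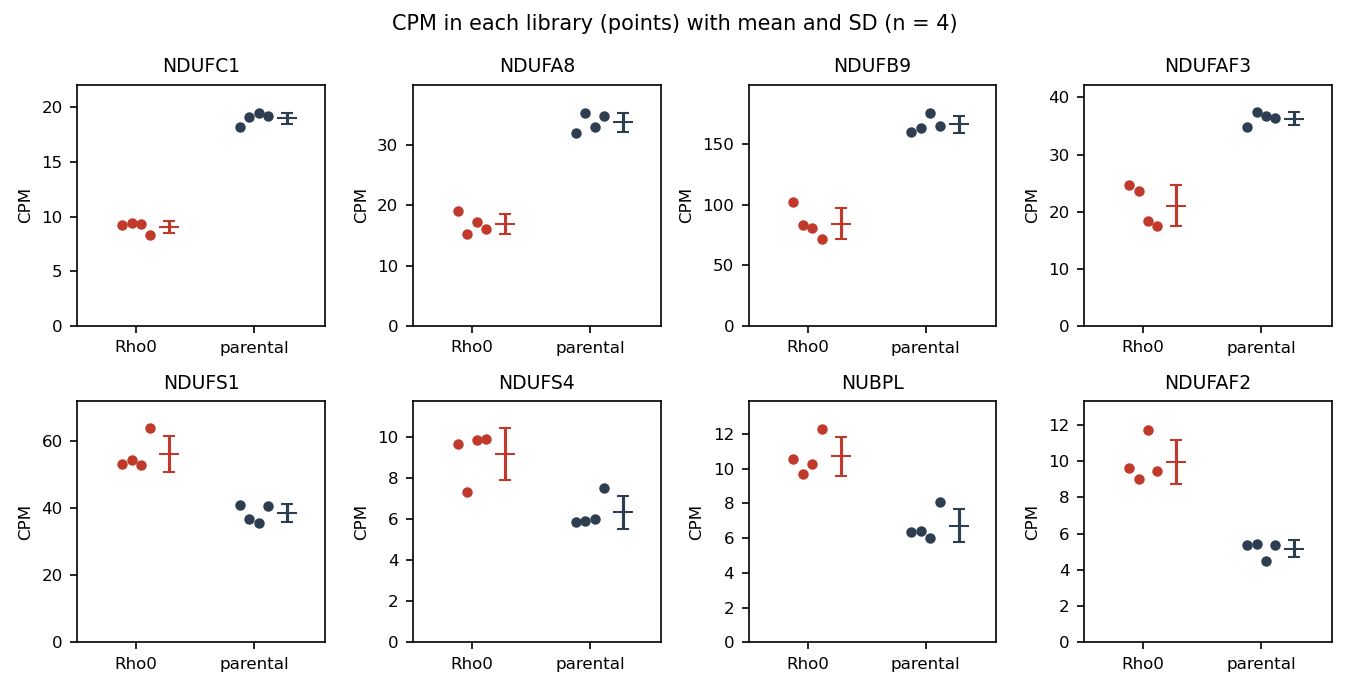
CPM in each library (points) with the mean and SD (bars, n = 4) for 4 genes that were lower in Rho0 (top) and 4 that were higher (bottom), Rho0 on the left and parental on the right of each panel. The Rho0 points of NDUFC1, NDUFA8, NDUFB9 and NDUFAF3 all lie below the parental points, and of the genes in the bottom row NDUFS4 is the one whose lines overlap.

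The assembly factors divided by gene rather than by the stage at which they act. The MCIA complex, which builds the ND2 part, had ACAD9 and ECSIT lower, TMEM126B higher and NDUFAF1 not called. ACAD9, an acyl-CoA dehydrogenase relative, had 48.7, 49.0, 49.1 and 40.6 CPM in Rho0, against 64.0, 63.8, 65.0 and 63.6 CPM in parental cells (log2 fold change -0.45, SE 0.08, edgeR adjusted p = 5.4e-04). TMEM126B, a membrane protein of the same complex, had 14.5, 16.4, 15.8 and 18.6 CPM in Rho0, against 12.8, 12.3, 11.8 and 13.5 CPM in parental cells (0.37, SE 0.10, edgeR adjusted p = 0.0080). Neither gene overlapped between the lines. Correcting libraries for GC content and transcript length ended the call of TMEM126B (0.13, edgeR adjusted p = 0.15). ECSIT, a signalling adaptor that also joins the complex, lay at -0.41 with overlapping lines (edgeR adjusted p = 0.033) and lost its call without Rho0 replicate 2 or 3 or without parental replicate 2, 3 or 4.

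Of the 7 factors that act on the Q module and ND1, NDUFAF3 was the one called lower. It had 24.6, 23.7, 18.4 and 17.6 CPM in Rho0, against 34.7, 37.4, 36.7 and 36.4 CPM in parental cells (log2 fold change -0.79, SE 0.11, edgeR adjusted p = 1.7e-04). Its partner NDUFAF4 was not called, at 3.84, 4.67, 5.36 and 5.93 CPM in Rho0 against 4.22, 4.93, 5.05 and 4.84 CPM in parental cells. NDUFAF7, an arginine methyltransferase of a core Q-module subunit, had 11.4, 10.6, 11.8 and 11.6 CPM in Rho0, against 8.49, 7.87, 7.68 and 8.70 CPM in parental cells (0.48, SE 0.09, edgeR adjusted p = 9.5e-04). TIMMDC1, which is needed for the ND1 part, had 50.2, 48.3, 46.8 and 47.6 CPM in Rho0, against 39.9, 40.5, 41.1 and 43.2 CPM in parental cells (0.23, SE 0.06, edgeR adjusted p = 0.011). Both rose without overlap. NDUFAF6 was called higher at 0.26 (8.33, 7.99, 8.58 and 8.45 CPM in Rho0, against 6.88, 7.04, 7.42 and 6.51 CPM in parental cells, edgeR adjusted p = 0.029), but the call was lost in 11 of 19 alternatives. NDUFAF5, which hydroxylates NDUFS7, and its partner NDUFAF8 were not called (0.08 and -0.29).

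The largest rises of all 50 genes were in NDUFAF2 and NUBPL. NDUFAF2, a late factor that is a paralog of NDUFA12 and holds its place before the N module is complete, had 9.62, 9.04, 11.8 and 9.47 CPM in Rho0, against 5.37, 5.45, 4.49 and 5.39 CPM in parental cells, 1.93-fold higher on average (log2 fold change 0.94, SE 0.12, edgeR adjusted p = 6.2e-05). NDUFA12 itself had 28.1, 22.6, 27.9 and 27.3 CPM in Rho0, against 25.5, 28.8, 27.9 and 28.7 CPM in parental cells, and was not called. NUBPL, which delivers iron-sulfur clusters to complex I, had 10.6, 9.72, 10.2 and 12.3 CPM in Rho0, against 6.33, 6.44, 6.03 and 8.09 CPM in parental cells (0.68, SE 0.12, edgeR adjusted p = 8.1e-04). Neither NDUFAF2 nor NUBPL overlapped between the lines. FOXRED1, the other late factor, went down, with 21.1, 20.3, 19.7 and 19.7 CPM in Rho0, against 28.4, 29.5, 28.9 and 26.6 CPM in parental cells (-0.49, SE 0.07, edgeR adjusted p = 1.7e-04).

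The promoters of the 2 largest rises are shown beside those of the largest drops, from the same RefSeq table and in the same form. In NDUFAF2 (gene at chr5:60945129-61153037, promoter at chr5:60944955-60945254, plus strand) capitals mark NFY matches that begin at -116 and -91 from the RefSeq start, which lies 76 bases downstream of the GENCODE start. In NUBPL (gene at chr14:31489956-31861224, promoter at chr14:31561154-31561453, plus strand) they mark an NFY match at -98 and a CRE match at -29 from the RefSeq start. That start lies 71448 bases inside the GENCODE span of the gene, so the window is not at the outermost annotated start. The CRE is the palindrome bound by CREB and ATF factors.
NDUFAF2: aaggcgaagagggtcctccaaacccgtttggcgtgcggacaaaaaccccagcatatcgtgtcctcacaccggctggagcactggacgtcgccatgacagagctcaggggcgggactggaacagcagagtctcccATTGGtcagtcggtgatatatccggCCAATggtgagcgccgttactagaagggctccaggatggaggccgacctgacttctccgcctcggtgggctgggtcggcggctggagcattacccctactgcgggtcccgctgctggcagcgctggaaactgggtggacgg
NUBPL: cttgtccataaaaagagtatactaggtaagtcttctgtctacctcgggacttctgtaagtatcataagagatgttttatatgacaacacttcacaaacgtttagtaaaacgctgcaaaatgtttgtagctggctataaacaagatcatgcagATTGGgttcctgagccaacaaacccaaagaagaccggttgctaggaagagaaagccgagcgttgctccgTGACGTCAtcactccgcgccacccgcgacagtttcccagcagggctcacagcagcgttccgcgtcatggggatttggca

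Promoters were found for 44 of the 50 genes and none for NDUFAF6, FOXRED1, NDUFB9, NDUFS5, NDUFB5 and NDUFC2. Each motif was searched as exact letters on both strands, and overlapping matches were counted. NRF1 (GCGCATGC) was in 7 of 44 (15.9%), namely NDUFB4, NDUFS6, NDUFAF4, NDUFA8, NDUFS7, NDUFAF5 and NDUFA6, against 3.27% of all 27305 promoters. Of these 7 genes, 3 were lower in Rho0, 4 were not called and none was higher. Of all 44 genes with a promoter, 19 were lower, 18 were not called and 7 were higher. The share called lower was thus about the same with and without regard to NRF1. CRE (TGACGTCA) was in 4 of 44 (9.09%, against 1.98% of all promoters), YY1 (AAGATGG) in 7 (15.9% against 6.06%), ETS (CCGGAAG) in 7 (15.9% against 10.7%), E-box (CACGTG) in 5 (11.4% against 7.43%) and NFY (CCAAT) in 14 (31.8% against 35.7%). The ATF4 composite letters (TTGCATCA) were in none of the 44 and in 0.923% of all promoters. These matches describe the letters of the windows and no test was made on them.

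Other genes of complex I biogenesis, a list of 25 that holds further factors, proteases and iron-sulfur carriers, had 7 higher, 10 lower and 8 not called, with a median log2 fold change of -0.07. The share called higher (28%) was near the 29.0% of all genes and the share called lower (40%) above the 25.4%. Among those higher were YME1L1 and OMA1, inner membrane proteases (0.82 and 0.65), CHCHD4, the import factor for subunits with paired cysteines (0.54), and NDUFA4L2, a relative of NDUFA4 (1.46). Among those lower were OXA1L, the insertase for mitochondrially encoded proteins (-0.63), the matrix protease subunit CLPP (-0.62), SFXN4 (-0.60), AFG3L2 (-0.51) and AIFM1 (-0.46), the partner of CHCHD4 in import. With library size alone the list had 13 higher and 1 lower (52% and 4%, against 56.5% and 10.1% of all genes). Without parental replicate 2 or 4 the list had 6 lower, and fewer of all genes tested were called lower too.

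Levels compared between genes are CPM per kilobase of the median annotated transcript length. Subunits ranged from 2.17 to 203 CPM per kb in Rho0 (median 34.2) and from 2.63 to 240 CPM per kb in parental cells (median 47.4). NDUFA6 was lowest in both lines, whereas NDUFV1 was highest in Rho0 and NDUFB9 in parental cells. With the longest transcript as the length, the subunit medians were 19.5 CPM per kb in Rho0 and 25.8 in parental cells, NDUFB7 was highest in Rho0 and NDUFS5 in parental cells, and NDUFA6 was lowest in Rho0 and NDUFA5 in parental cells. Assembly factors ranged from 4.65 to 70.5 CPM per kb in Rho0 (median 18.8) and from 4.63 to 60.2 CPM per kb in parental cells (median 13.2), with NDUFAF1 lowest and TIMMDC1 highest in both. With the longest transcript their medians were 8.55 CPM per kb in Rho0 and 8.14 in parental cells, TIMMDC1 was highest in Rho0 and ACAD9 in parental cells, and NDUFAF5 was lowest in Rho0 and NUBPL in parental cells. The order of the genes by level was much the same in both lines (Pearson r = 0.96 and Spearman rho = 0.96 over 50 genes, a description, since both axes share gene length and sequence). The fold change was lower for genes with a higher parental level (Pearson r = -0.57, Spearman rho = -0.57) and with a higher GC content (r = -0.45, rho = -0.51), with little relation to length (r = 0.10, rho = 0.07). The parental level is part of the fold change, so these are descriptions over genes that share libraries.

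**Figure D4:**
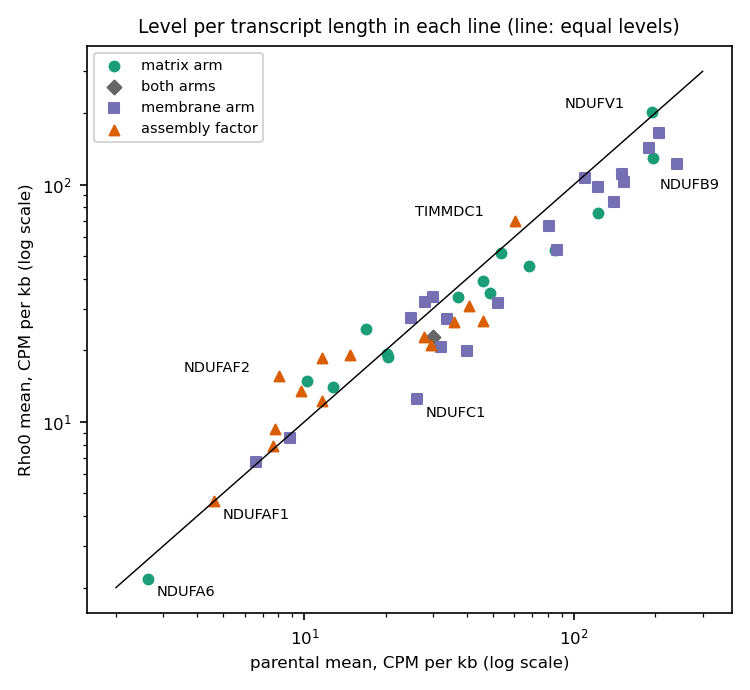
Mean level of each gene in Rho0 (vertical) against parental cells (horizontal), both in CPM per kb on log axes, with marker shapes for the 4 classes and a line at equal levels, under TMM scaling. Most of the highly expressed subunits lie below the line, and most assembly factors with low levels lie on or above it.

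The Rho0 libraries varied more among themselves than the parental ones. The relative SD over 4 libraries was larger in Rho0 for 41 of 50 genes, with a median of 11.8% in Rho0 and 5.63% in parental cells. Rho0 replicate 1 had the highest level of the 4 Rho0 libraries for 36 genes, and replicate 4 the lowest for 23. The 36 genes had a median GC content of 53.0%, and the other 14 had 44.2%. None of these values was set beside the same over all genes. The order of the Rho0 libraries was also seen beyond complex I. On the second principal component of all genes tested, an axis with 6.2% of the variance, Rho0 replicates 1 to 4 lay at 23.7, 16.8, -0.459 and -35.3. Subunits summed to 1624, 1380, 1359 and 1201 CPM in Rho0 replicates 1 to 4, against 1782, 1819, 1885 and 1820 CPM in parental replicates 1 to 4, and assembly factors summed to 265, 253, 251 and 234 CPM in Rho0, against 269, 280, 282 and 281 CPM in parental cells. Neither sum overlapped between the lines under TMM scaling. With library size alone, a check added after seeing the data, subunits summed to 1434 to 1800 CPM in Rho0 and 1510 to 1676 CPM in parental cells, which overlap, and assembly factors to 279 to 294 CPM in Rho0 and 226 to 259 CPM in parental cells, the opposite direction. Without Rho0 replicate 1, 29 of the 50 genes were called lower, and without Rho0 replicate 3, 20 were. Over all genes tested, 3858 were called lower in the main fit. That count also rose without Rho0 replicate 1 and fell without Rho0 replicate 3. The swing in the 50 genes can thus not be read as particular to complex I.

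Of the genes around complex I genes called higher, 50.7% were called higher and 9.86% lower. Of the genes around those called lower, 20.6% were called higher and 35.1% lower. All genes tested had 29.0% and 25.4%. These shares were not computed around called genes outside complex I, which would be the closer comparison. Over 48 complex I genes with at least 5 tested neighbours within 1000 kb, the fold change and the median of the neighbours had a Pearson r of 0.59 and a Spearman rho of 0.53, against 0.22 and 0.32 over 13167 genes of all kinds; nearby genes share neighbours, so no test was made. All 8 genes called higher had a neighbour median above 0, compared with 8 of the 23 called lower and 7 of the 17 not called. The counts were 36 higher and 7 lower of 71 neighbours around the 8 higher genes, and 103 higher and 175 lower of 499 around the 23 lower genes. NDUFS4 lay among 6 neighbours of which 5 were higher (median 1.32), and NDUFAF2 among 5 of which 4 were higher (median 0.70). NDUFC1 had 10 neighbours, 5 lower and none higher (median -0.44). NUBPL went up among neighbours that mostly were not called (1 higher and 1 lower of 10, median 0.07), and NDUFB4 and NDUFV2 were lower among neighbours with medians of 0.59 and 0.41.

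**Figure D5:**
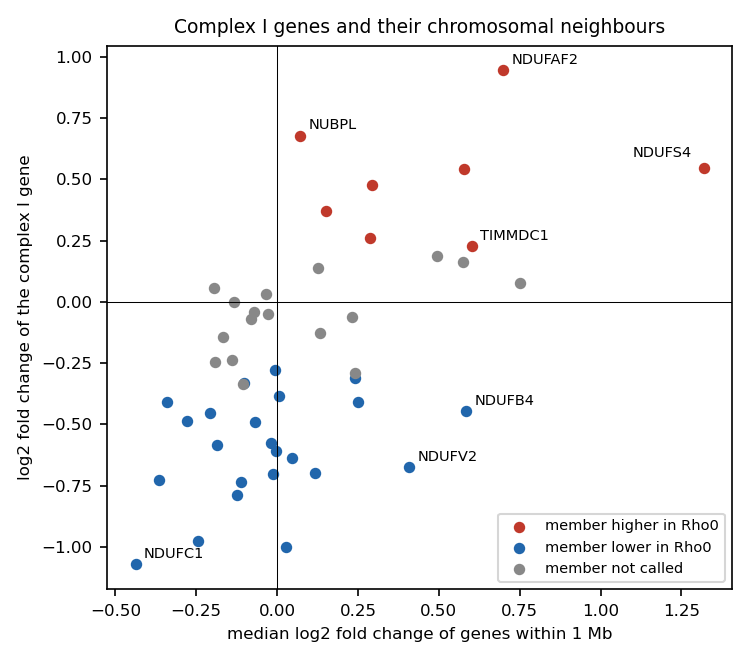
Log2 fold change (Rho0 over parental, TMM scaling) of each of 48 complex I genes, on the vertical axis, against the median log2 fold change of the tested genes within 1 Mb, on the horizontal axis; red, blue and grey points were called higher, called lower and not called. All red points lie right of 0, while blue points lie on both sides.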

How the data were processed

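Per the labels' protocols, libraries were strand-specific and enriched for polyadenylated RNA. Deposited were a table of estimated counts per Ensembl gene and a table of log2 values, normalized by the authors, for 12885 genes. Named without versions or roles in the submitters' processing notes are GRCh38, kallisto, limma and edgeR. The deposited values equalled log2 of (counts times 1 factor per library, plus 1) for 48 of the 50 genes within 0.001. NDUFA6 and NDUFA3 were the exceptions.

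The main test was edgeR's quasi-likelihood F-test between the lines (edgeR 4.0.16 under R 4.3.3) on rounded estimated counts, after TMM scaling and filterByExpr (minimum count 10), with Benjamini-Hochberg adjustment over 15184 genes. The biological coefficient of variation was 13.7%. DESeq2 1.42.0 and limma 3.58.1 served as alternatives. Tables and figures were made with Python 3.11.15, pandas 2.3.3, numpy 2.4.6 and matplotlib 3.10.9. The script was tested on simulated data. That simulation changed a small set of genes in random directions, so it could not test the scaling under changes as broad as those here. Gene positions and transcript lengths are from GENCODE 29 (GRCh38), promoters from RefSeq (GRCh38.p14). The genes, lists and tests were chosen with earlier results of these data known. Values in every library are given for the genes with the largest changes in each class, the called rises and the core subunits, and the others by count and range. Descriptions of neighbours and of spread between libraries were added after seeing the data. No libraries agreed within sampling noise (lowest chi-square per degree of freedom 4.21). P-values measure the spread between cultures of these lines.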

Additional observations from a re-analysis of the deposited data

Results flagged for a closer look

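In groups of 4 libraries, the highest or lowest library was compared with the range of its group. Of 102 groups examined, 11 had a library that stood apart, where chance alone gives about 1 in 20. Of the CPM values, 6 were in Rho0. NDUFS1 had 64.0 in Rho0 replicate 4 (the others 52.8 to 54.3), NDUFS4 had 7.31 in Rho0 replicate 2 (9.68 to 9.90) and NDUFA12 had 22.6 in Rho0 replicate 2 (27.3 to 28.1). NDUFC1 had 8.27 in Rho0 replicate 4 (9.26 to 9.42), NDUFS5 had 55.3 in Rho0 replicate 1 (42.3 to 44.5) and ACAD9 had 40.6 in Rho0 replicate 4 (48.7 to 49.1). In the parental line, NDUFS4 had 7.53 CPM in replicate 4 (5.87 to 6.03), NDUFA1 had 58.5 in replicate 2 (63.1 to 63.6), NDUFA11 had 148 in replicate 3 (124 to 126) and NDUFAF2 had 4.49 in replicate 3 (5.37 to 5.45). The 7 mitochondrially encoded complex I mRNAs took 0.0553% of counts in Rho0 replicate 2, against 0.00111% to 0.00282% in the other Rho0 libraries.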

How the results depend on the processing

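Of the 31 called genes, 15 kept their call and direction in all 19 alternatives, and the other calls were lost in at least 1. Library size alone gave 22 genes higher and 9 lower, with medians of 0.13 over the 50 genes, 0.068 over subunits, 0.25 over the matrix arm and 0.020 over the membrane arm. It turned the log2 fold changes of NDUFV3 (0.32), NDUFA2 (0.26), NDUFA6 (0.15), NDUFA7 (0.25), NDUFA12 (0.33), NDUFS7 (0.15), NDUFAB1 (8.0e-05), NDUFA1 (0.11), NDUFA3 (0.35), NDUFA11 (0.056), NDUFC2 (0.057), NDUFB1 (0.079), NDUFB7 (0.34), NDUFAF1 (0.38) and NDUFAF8 (0.10). The difference in summed CPM of the assembly factors, Rho0 minus parental, became 43.9 in place of -27.5, and that of the subunits -4.94 in place of -435 (added after seeing the data). With it the list of other genes had 13 higher and 1 lower. The correction for length and GC content turned the median of the assembly factors (-0.064) and the values of NDUFA5 (-0.17), NDUFA3 (0.20), NDUFB5 (-0.0015), NDUFB6 (-0.11), NDUFB7 (0.017), NDUFAF4 (-0.26) and NDUFAF5 (-0.075). DESeq2 size factors turned NDUFB6 (-0.00129), a filter of 50 counts in 4 libraries turned NDUFAF1 (0.024) and so did no filter (0.011). The cause of these turns was not tested.

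Leaving out 1 library in turn gave 7 to 8 genes higher, 20 to 29 lower and 6 to 9 of the other list lower. It turned 7 uncalled genes, whose values ran from -0.10 to 0.17 for NDUFV1, -0.025 to 0.20 for NDUFA5, -0.12 to 0.0015 for NDUFA3, -0.059 to 0.091 for NDUFB6, -0.18 to 0.070 for NDUFB7, -0.080 to 0.091 for NDUFAF1 and -0.060 to 0.15 for NDUFAF4. The remaining alternatives gave 6 to 9 higher and 23 to 26 lower, with limma-trend on the deposited log2 table calling NDUFA6 (-0.33) and NDUFA3 (-0.43) lower. With replicate number as a replicate block, 7 genes were higher and 24 lower. In deviations from the mean of their line, same-numbered libraries correlated at -0.13, 0.04, 0.0018 and 0.16. These values show no clear pairing but cannot settle whether cultures were handled in pairs. The labels do not say that a replicate number is shared between the lines. Summing counts over several IDs with 1 symbol gave no value, since each gene had 1 ID. With the longest transcript, 87 of 100 levels per kb moved by more than their SD. Adding pseudogene counts changed no call, and these took 0.166% of the combined counts in Rho0 and 0.186% in the parental line.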
